A study of Danio rerio with 15 samples.

Results

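The gene dhodh and the nucleoside diphosphate kinase genes (nme genes) were followed in zebrafish (Danio rerio) melanoma and skin. The probe sets were those whose single gene symbol in the platform annotation is dhodh or begins with nme and a digit. This found 10 probe sets of 15502 that are not controls, 1 for each of 10 genes of 8793: dhodh, nme2a, nme2b.1, nme2b.2, nme3, nme4, nme5, nme6, nme7 and nme9. The rule reads gene names only, and no member was removed by a filter. No sequence of these genes is printed, since only gene names were at hand.

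Dhodh, dihydroorotate dehydrogenase, sits on the inner mitochondrial membrane and carries out the fourth step of de novo pyrimidine synthesis. It makes orotate and passes its electrons to ubiquinone, and it is the enzyme blocked by leflunomide. The enzyme Cad works before it and Umps after it, and the product, UMP, is then phosphorylated to UTP. Nucleoside diphosphate kinases carry out the last of these steps, moving a phosphate from ATP onto other nucleoside diphosphates. In mammals the family has group I members, which are active kinases in the cytosol or at mitochondria (the NME1 to NME4 type), and more divergent group II members, several of which are found in cilia and sperm tails.

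Total RNA was measured on 15 arrays, 1 per sample. Melanoma (6 arrays) and skin excised right next to a melanoma (6 arrays, called mutant skin here) came from fish of the genotype mitf-BRAFV600E;p53-/-, in which the mitf promoter, active in the pigment cell lineage, drives a mutant BRAF and p53 is lacking in the whole fish. Normal skin (3 arrays, called wild-type skin here) came from fish of the genotype Tu and was cut from along the flank. All fish were 4 to 8 months old. Mutant skin and melanoma have the same genotype label, so melanoma against mutant skin compares the lesion with skin next to a melanoma. DNA changes in the tumour were not measured. Genotype, strain and site of skin cannot be told apart in the comparisons with wild-type skin. The labels do not say whether the samples of a group came from separate fish, so p-values measure the spread between these samples.

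All values are log2 values relative to a level per probe set that the sources used here do not state, so differences between arrays can be read and the level of 1 gene cannot be set against that of another. The lowest value possible is -6.64, the log2 of 0.01, at which a probe set has only a bound. Tests were limma fits over all 8793 genes and 3 groups, with Benjamini-Hochberg adjusted p-values and a threshold of 0.05. "Rose" and "fell" are used of genes past it. Errors of levels are SD and errors of changes are standard errors. Each change also has a two-sided exact permutation p over arrays, unadjusted for the 30 member comparisons. Its smallest possible value is 0.00216 for 6 against 6 arrays and 0.0119 for 6 against 3. The number of arrays limits the precision.

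Several arrays stood apart in their tissue content. Melanoma 6 correlated with the other melanomas at r = -0.43 to -0.33, while those 5 correlated among themselves at 0.63 to 0.81, and it correlated with mutant skin 6 at 0.86. Its level of mitfa, which encodes the master regulator of melanocytes, was -0.40, against 2.28 to 3.36 in the other melanomas and -5.24 to -1.49 in mutant skin. Melanoma 6 had 0.15 as the level of 8 melanocyte markers, where the other melanomas had 2.105 to 2.83 and mutant skin had -2.20 to -0.32. A high level of 29 oocyte markers, by which is meant over 3 log2 units above that of the lowest array, was found in melanoma 6, in mutant skin 1, 2, 4 and 6, and also in wild-type skin 1 and 2, 7 arrays together. For 32 skeletal muscle markers it was 0.50 in melanoma 6 and lay from -4.19 to -2.56 in the other melanomas, from -0.40 to 2.63 in mutant skin and from 1.97 to 3.07 in wild-type skin. In such bulk samples, fewer cells of a type and less RNA per cell cannot be told apart.

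The level of dhodh did not differ detectably between any of the groups. It was -0.39, -0.86, -0.99, 0.09, 0.38 and 0.16 in melanoma 1 to 6. In mutant skin 1 to 6 it was -0.88, 0.68, -0.50, -0.75, 0.26 and 0.70. In wild-type skin 1 to 3 it was 0.60, 0.01 and 0.19. The 3 groups overlapped, and the spread within mutant skin (SD 0.72) and melanoma (SD 0.57) exceeded every difference between group means. Melanoma minus mutant skin was -0.18 ± 0.35 (limma adjusted p = 0.79, exact permutation p = 0.619), with a 95% interval of -0.93 to 0.56, which as a fold is 0.524 to 1.48. Melanoma minus wild-type skin was -0.54 ± 0.43 (95% interval -1.45 to 0.38, limma adjusted p = 0.43, exact permutation p = 0.179). Mutant skin minus wild-type skin was -0.35 ± 0.43 (95% interval -1.27 to 0.56, limma adjusted p = 0.998). Without melanoma 6 the difference from mutant skin was -0.27 (adjusted p = 0.67), and without the 7 arrays of high oocyte level it was -0.23 ± 0.44 (adjusted p = 0.736).

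**Figure D1:**
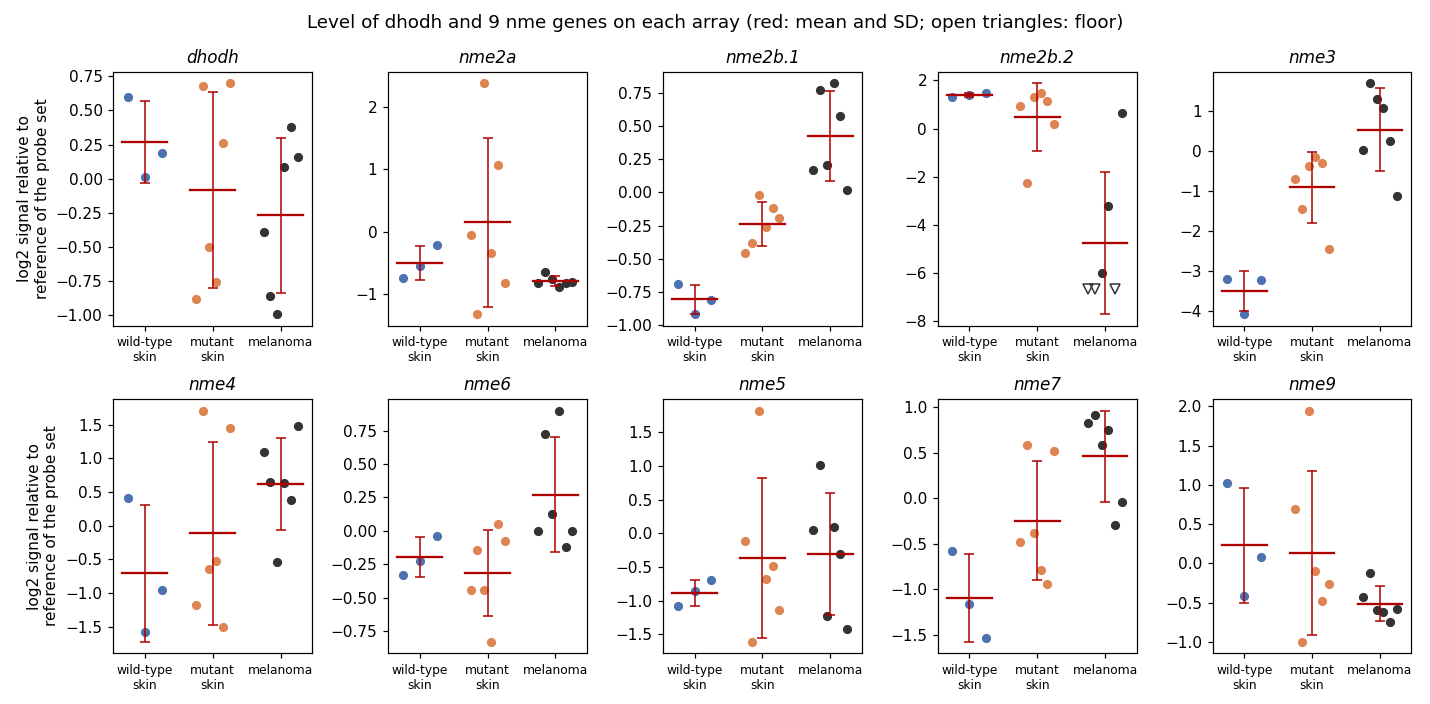
Log2 value of each of the 10 genes in every array, 1 panel per gene, by group. Points are arrays, the red mark and bar are the group mean ± SD, and open triangles are values at the floor of -6.64. The panel of nme2b.2 holds 3 melanoma arrays at the floor, and the dhodh panel shows overlapping groups.

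The 5 genes whose values most resembled those of dhodh over the 15 arrays were tnpo3 (r = 0.89), ssbp3b (r = 0.87), dnaja3a (r = 0.86), mrpl14 and pex5 (both r = 0.85). Of these, mrpl14 encodes a protein of the mitochondrial ribosome, dnaja3a a mitochondrial chaperone and pex5 the receptor for import into peroxisomes. The genes most opposite to it were cab39l1 (r = -0.87), per2 and rasgrp4 (both r = -0.86), of which per2 is a component of the circadian clock. These were the extremes of 8793 correlations over 15 arrays that also differ in tissue content. The dhodh value correlated with the oocyte marker level at r = 0.47 and with the muscle marker level at r = 0.17, given here as descriptions.

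Among the group I kinases, nme2b.2 and nme2b.1 moved in opposite directions. In the RefSeq table of the assembly GRCz12tu, they are neighbours on chromosome 19, with 0 protein-coding genes between them. In mammals the related NME1 and NME2, which are also neighbours, encode the most abundant cytosolic nucleoside diphosphate kinases, and NME1 was first described as a gene whose level falls in metastatic melanoma cells.

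The nme2b.2 value was at the floor of -6.64 in melanoma 1, 2 and 5. It was -6.02 in melanoma 3, -3.23 in melanoma 4 and 0.64 in melanoma 6. In mutant skin 1 to 6 it was 0.94, -2.27, 1.296, 1.48, 1.13 and 0.19, and in wild-type skin 1.31, 1.37 and 1.48. Melanoma 1 to 5 thus lay below every skin array, melanoma 6 lay within the range of mutant skin, and mutant skin 2 lay apart from the other skin arrays. The melanoma mean was at most -4.76 (SD 2.96, n = 6), against 0.46 ± 1.41 (n = 6) in mutant skin and 1.39 ± 0.09 (n = 3) in wild-type skin. The nme2b.2 signal fell in melanoma by at least 37.2-fold against mutant skin, a log2 change of at most -5.22 ± 1.11 (limma adjusted p = 0.0084, exact permutation p = 0.0065). Against wild-type skin it was at least 70.7-fold lower, a log2 change of at most -6.14 ± 1.36 (limma adjusted p = 0.0078, exact permutation p = 0.0119), and these groups did not overlap. The changes ranked 49th and 50th from the lowest of 8793 genes. Mutant skin minus wild-type skin was -0.93 (adjusted p = 0.998).

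Values at the floor were rare, with 35 of 15502 probe sets (0.226%) reaching it in any array. The nme2b.2 probe set was the single member among them. Of the 35 probe sets, 29 were at the floor in melanomas only and 16 belonged to genes of the skeletal muscle list. The only other probe set at the floor in exactly melanoma 1, 2 and 5 was that of gapdh, a gene outside that list. With floor values set to missing, so that melanoma 3, 4 and 6 remained, nme2b.2 was -3.33 against mutant skin (limma adjusted p = 0.0905) and -4.26 against wild-type skin (limma adjusted p = 0.0547), neither of which passed the threshold. Without melanoma 6 it was at most -6.30 and -7.22 (limma adjusted p = 4.8e-05 and 7.9e-05).

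The values of nme2b.2 ran parallel to those of skeletal muscle genes. Its 5 most similar genes of 8793 were ckmb and ckma, which encode muscle creatine kinase, pvalb3 and pvalb1, which encode parvalbumins, the calcium buffers of fast muscle, and mylz3, a myosin light chain (all r = 0.99). All 5 belong to the 32 muscle markers. They were at the floor themselves, ckmb and ckma in 2 melanomas and the other genes in 4, so these r values hold shared floor values. Against the level of the 32 muscle markers, the r of nme2b.2 was 0.98, and against that of 8 melanocyte markers it was -0.93. Against 34 keratinocyte markers it was 0.77, against 7 ionocyte and mucous cell markers 0.76 and against the oocyte markers 0.57. For single muscle markers r ran from -0.44 to 0.99, with a median of 0.97. These arrays fall into melanoma 1 to 5 and the rest, so r over all 15 holds both the gap between the clusters and the spread within them. In mutant skin 1 to 6 the muscle level was 1.95, -0.40, 2.46, 2.63, 2.40 and 0.37, the same order as that of the nme2b.2 values. Over the 9 skin arrays Pearson's r was 0.91 and Spearman's rho 0.90, and over the 7 without mutant skin 2 and 6, the farthest from the median muscle level, r was 0.74 and rho 0.79. Of the 32 muscle markers 25 fell and 0 rose in melanoma against mutant skin, with a median change of -5.68, and 28 fell and 0 rose against wild-type skin. With the muscle level as a covariate, the nme2b.2 difference was 1.00 ± 0.80 against mutant skin and 1.54 ± 0.99 against wild-type skin (limma adjusted p = 0.989 and 0.999). In that fit 0 of 8793 genes were called against mutant skin and 1 against wild-type skin.

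**Figure D2:**
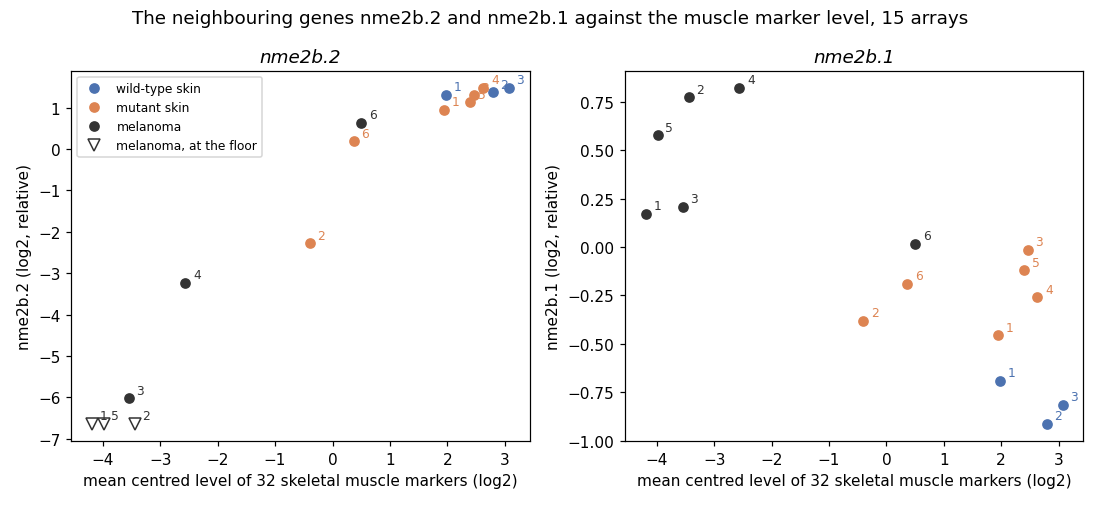
Log2 value of nme2b.2 (one panel) and nme2b.1 (the other) against the mean level of 32 skeletal muscle markers, centred on the mean of all arrays, in log2 units. Points are arrays, labelled by replicate number and coloured by group. The nme2b.2 values climb with the muscle level (r = 0.98), and those of nme2b.1 decline with it (r = -0.80).

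The nme2b.1 value was higher in melanoma than in either skin. It was 0.17, 0.77, 0.21, 0.82, 0.58 and 0.02 in melanoma 1 to 6, and -0.46, -0.38, -0.02, -0.26, -0.12 and -0.19 in mutant skin 1 to 6. In wild-type skin 1 to 3 it was -0.69, -0.91 and -0.81. All 6 melanomas, melanoma 6 included, lay above all mutant skin arrays, and these lay above all wild-type arrays. It rose by 0.66 ± 0.20 in melanoma against mutant skin, a 1.59-fold change (95% interval 1.18 to 2.14, limma adjusted p = 0.0418, exact permutation p = 0.0022). It rose by 1.23 ± 0.25 against wild-type skin, a 2.35-fold change (limma adjusted p = 0.0046, exact permutation p = 0.0119). Mutant skin minus wild-type skin was 0.57 ± 0.25, which did not pass adjustment (limma adjusted p = 0.621, exact permutation p = 0.0119). The call against mutant skin was lost on leaving out any 1 of 14 arrays, with adjusted p up to 0.0989, and kept without melanoma 6 (0.0182), while the change itself stayed at 0.59 to 0.75. It was also lost with the replicate number as a block (adjusted p = 0.0798), with only the arrays of both groups (adjusted p = 0.0718), with the oocyte covariate (0.54, adjusted p = 0.0789) and without the arrays of high oocyte level (0.58 ± 0.30, adjusted p = 0.207). The nme2b.1 value correlated with the melanocyte level at r = 0.84 and with the muscle level at r = -0.80. With the muscle level as a covariate both nme2b.1 calls were lost. That fit called 0 of all genes against mutant skin and 1 against wild-type skin. The part of the melanocyte level in the change was not tested.

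The mean nme3 value was -3.50 ± 0.51 (SD, n = 3) in wild-type skin, -0.91 ± 0.89 (n = 6) in mutant skin and 0.53 ± 1.03 (n = 6) in melanoma. The mammalian NME3 protein is tied to the outer mitochondrial membrane and to peroxisomes. In wild-type skin 1 to 3 nme3 was -3.19, -4.08 and -3.21. In mutant skin 1 to 6 it was -0.71, -1.46, -0.39, -0.15, -0.30 and -2.45, and in melanoma 1 to 6 it was 0.03, 1.68, 1.29, 1.07, 0.23 and -1.12. Every array of mutant fish lay above every wild-type array, melanoma 1 to 5 lay above all mutant skin, and melanoma 6 lay within mutant skin. It rose in melanoma against wild-type skin by 4.03 ± 0.60, a 16.3-fold change (95% interval 6.67 to 39.9, limma adjusted p = 0.0012, exact permutation p = 0.0119), the 38th highest change of 8793 genes. Mutant skin minus wild-type skin was 2.58 ± 0.60, or 6.00-fold, the 23rd highest, and missed the adjusted threshold (limma adjusted p = 0.162, exact permutation p = 0.0119, the smallest possible). It did pass with array quality weights (3.35, adjusted p = 0.000124) and with the oocyte level as a covariate (2.59, adjusted p = 0.0121).

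Melanoma minus mutant skin was 1.44 ± 0.49 for nme3 and likewise missed the threshold (95% interval 0.39 to 2.496, limma adjusted p = 0.0683, exact permutation p = 0.0325). Without melanoma 6 it was 1.77 (limma adjusted p = 0.0117), and with the replicate number as a block 1.44 (limma adjusted p = 0.0205). The comparisons with wild-type skin share 3 arrays, so they are not independent. With the muscle level as a covariate, nme3 was 3.80 ± 1.17 in melanoma minus wild-type skin (limma adjusted p = 0.771), in the fit that called 1 gene of all. The 5 most similar genes were vapb (r = 0.92), mtmr2 (r = 0.91), copb2, blmh and wipi1 (all r = 0.90). Of these, vapb encodes a tether of the endoplasmic reticulum to other membranes, mtmr2 a phosphoinositide phosphatase, copb2 a subunit of the COPI vesicle coat and wipi1 an autophagy protein. The most opposite were maf1b (r = -0.96), zgc:77929 and coq3 (both r = -0.88). maf1b is a copy of the gene for the repressor of RNA polymerase III, and coq3 encodes a methyltransferase of ubiquinone synthesis. These r values are extremes over 15 arrays that also differ in tissue content, and they hold the gap between wild-type skin and the other arrays. The nme3 value correlated with the melanocyte level at r = 0.78, with the muscle level at -0.68 and with the oocyte level at -0.64, given here as descriptions.

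**Figure D3:**
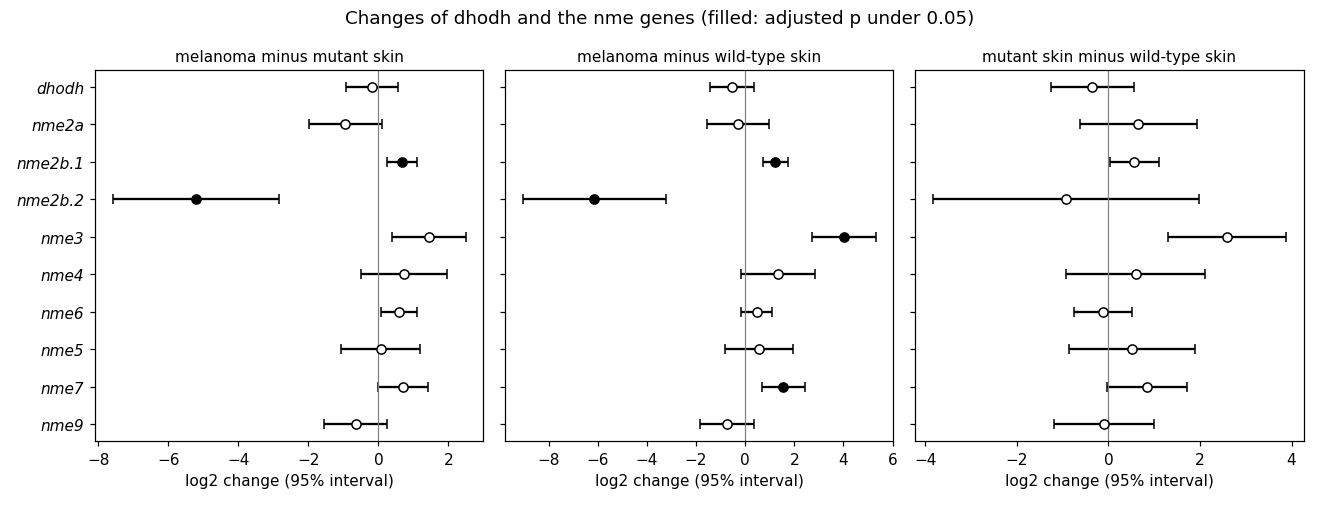
Log2 change of each of the 10 genes in the 3 comparisons, 1 panel per comparison, with its 95% interval from the limma fit. Filled symbols have an adjusted p under 0.05. In melanoma against wild-type skin nme3, nme7 and nme2b.1 are filled on the higher side and nme2b.2 on the lower side, and no symbol is filled in mutant skin against wild-type skin.

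In the main fit the other group I genes passed no threshold. With array quality weights and with the oocyte level as a covariate, both over all 15 arrays, nme4 rose against both skins. In those fits nme2a fell against mutant skin. Over all genes they called 1666 and 1073 higher and 1193 and 986 lower against mutant skin. Against wild-type skin they called 2488 and 1496 of all genes higher. nme2a was nearly constant in melanoma (-0.79 ± 0.08) and variable in mutant skin (0.15 ± 1.36), where replicate 3 reached 2.39 and replicate 5 reached 1.07. Its difference was -0.94 ± 0.49 (limma adjusted p = 0.228). Without the arrays of high oocyte level, which leaves mutant skin 3 and 5 as the mutant skin, it fell by 2.52 (limma adjusted p = 0.0022), a value that rests on those arrays. nme4, which in mammals encodes the form held in the mitochondrial intermembrane space, was 0.62 ± 0.68 in melanoma, -0.11 ± 1.36 in mutant skin and -0.70 ± 1.01 in wild-type skin. Its highest values were 1.71 and 1.45 in mutant skin 2 and 6, 1.48 in melanoma 6 and 1.09 in melanoma 1, and the first 3 of these arrays have a high oocyte level. Melanoma minus mutant skin was 0.73 ± 0.58 (limma adjusted p = 0.45), and without the arrays of high oocyte level 1.52 (limma adjusted p = 0.0443).

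Of the group II genes, nme7 rose and the others did not pass. In mammals NME7 belongs to the microtubule-nucleating gamma-tubulin complex and is found in cilia. The nme7 value was 0.83, 0.92, 0.59, 0.75, -0.29 and -0.04 in melanoma 1 to 6. Wild-type skin 1 to 3 had -0.58, -1.16 and -1.54. Mutant skin lay between, at -0.48, 0.59, -0.38, -0.78, -0.94 and 0.52, and overlapped both. nme7 rose in melanoma against wild-type skin by 1.55 ± 0.41, or 2.94-fold (limma adjusted p = 0.0186, exact permutation p = 0.0119). That call was lost without wild-type skin 2 (adjusted p = 0.0815) or wild-type skin 3 (adjusted p = 0.107). Melanoma minus mutant skin was 0.71 ± 0.33 (limma adjusted p = 0.183). The nme7 value correlated with the level of 7 ionocyte and mucous cell markers at r = -0.87, of 34 keratinocyte markers at -0.82 and of the muscle markers at -0.80. Of these lists 3, 13 and 28 markers fell and 0, 1 and 0 rose in melanoma against wild-type skin. With the muscle level as a covariate, in the fit that called 1 gene of all, nme7 was 0.17 ± 0.65 in that comparison (limma adjusted p = 0.999). The part of the other markers was not tested.

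nme6, a mitochondrial member in mammals, was 0.27 ± 0.43 in melanoma, -0.31 ± 0.32 in mutant skin and -0.20 ± 0.15 in wild-type skin. Its melanoma minus mutant skin difference of 0.59 ± 0.24 missed the adjusted threshold (limma adjusted p = 0.124, exact permutation p = 0.0195). nme5, whose mammalian form sits in the radial spokes of cilia, was -0.30 ± 0.91, -0.37 ± 1.19 and -0.88 ± 0.19 in the same order. nme9, related to a thioredoxin-domain form of cilia and sperm, was -0.51 ± 0.22, 0.14 ± 1.04 and 0.23 ± 0.73. The highest value of both was in mutant skin 3, at 1.82 for nme5 and 1.95 for nme9. No comparison of nme5 or nme9 passed.

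In melanoma against mutant skin 1 member rose and 1 fell of 10, where 7.41% of all genes rose and 5.63% fell (13% in either direction). Array quality weights made this 4 and 2, in a fit in which 1666 of all genes rose and 1193 fell. In melanoma against wild-type skin 3 rose and 1 fell, where 9.34% rose and 7.48% fell (16.8% in either direction). Weights made this 4 and 1, where 2488 of all genes rose and 1807 fell. In mutant skin against wild-type skin 0 members were called by limma, and 0.136% of all genes were called (0.0227% rose and 0.114% fell). An unadjusted p under 0.05 was found in this comparison for 2 members of 10 and for 638 of all 8793 genes. Array quality weights called 2 members there, in a fit in which 275 of all genes rose and 285 fell. The groups did not overlap for 1, 4 and 2 members in these comparisons, against 2.77%, 18.1% and 3.20% of all genes. The median change of the members was 0.33, 0.52 and 0.54, against 0.02, -0.02 and -0.02 over all genes.

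The pathway around the members was read from a list of 56 pyrimidine genes, of which 31 were measured, the 10 members included. In melanoma against mutant skin 3 rose, ctps1a, nme2b.1 and tk1, and 1 fell, nme2b.2, with a median change of 0.26. Of all genes, 7.41% rose and 5.63% fell there (13% in either direction), with a median change of 0.02. The gene tk1, which encodes the thymidine kinase of dividing cells, rose by 1.198 ± 0.24 (limma adjusted p = 0.0061). ctps1a, which encodes a CTP synthase, rose by 1.25 ± 0.38 (limma adjusted p = 0.0411), and lost the call when each array was centred on its median (adjusted p = 0.0752) and on leaving out any 1 of 10 arrays, while tk1 kept its call without each of the 15 arrays. In melanoma against wild-type skin 6 rose, nme3, nme7, nme2b.1, ctps1a (1.42 ± 0.46), tk1 (1.00 ± 0.29) and the UMP/CMP kinase gene cmpk (1.17 ± 0.30), with limma adjusted p of 0.0012 to 0.0477, and 1 fell, with a median change of 0.47. Of all genes, 9.34% rose and 7.48% fell in melanoma against wild-type skin (16.8% in either direction), with a median change of -0.02. In mutant skin against wild-type skin limma called 0 of the 31. An unadjusted p under 0.05 was found there for 3 of the 31 and for 638 of all 8793 genes. Leaving out wild-type skin 3 lowered the count against wild-type skin from 7 to 3, and leaving out wild-type skin 2 lowered it to 4. Over all genes the calls there went from 821 higher and 658 lower to 331 and 245 without wild-type skin 3. Without wild-type skin 2 they were 279 and 289. Single arrays ended the ctps1a call in 12 cases of 15, that of tk1 in 6 and that of cmpk in 1, wild-type skin 3 (adjusted p = 0.12), and the calls of nme3, nme2b.1 and nme2b.2 in 0.

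The enzymes on either side of dhodh did not pass either. cad was 0.23 ± 0.33 in melanoma minus mutant skin (limma adjusted p = 0.718) and -0.04 ± 0.41 in melanoma minus wild-type skin. umps was 0.77 ± 0.88 (limma adjusted p = 0.631) and 1.39 ± 1.08 (limma adjusted p = 0.42). Without the 7 arrays of high oocyte level the list split more widely. Then, of the 31 genes, 8 were higher and 4 lower past the threshold in melanoma than in mutant skin, where 11.1% of all genes rose and 11.4% fell. umps rose by 2.33 ± 0.41 (limma adjusted p = 0.005) and tyms, thymidylate synthase, by 3.02 (limma adjusted p = 0.0051), while cad was 0.11 ± 0.29 and dhodh -0.23 ± 0.44. This comparison rests on melanoma 1 to 5 and mutant skin 3 and 5.

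**Figure D4:**
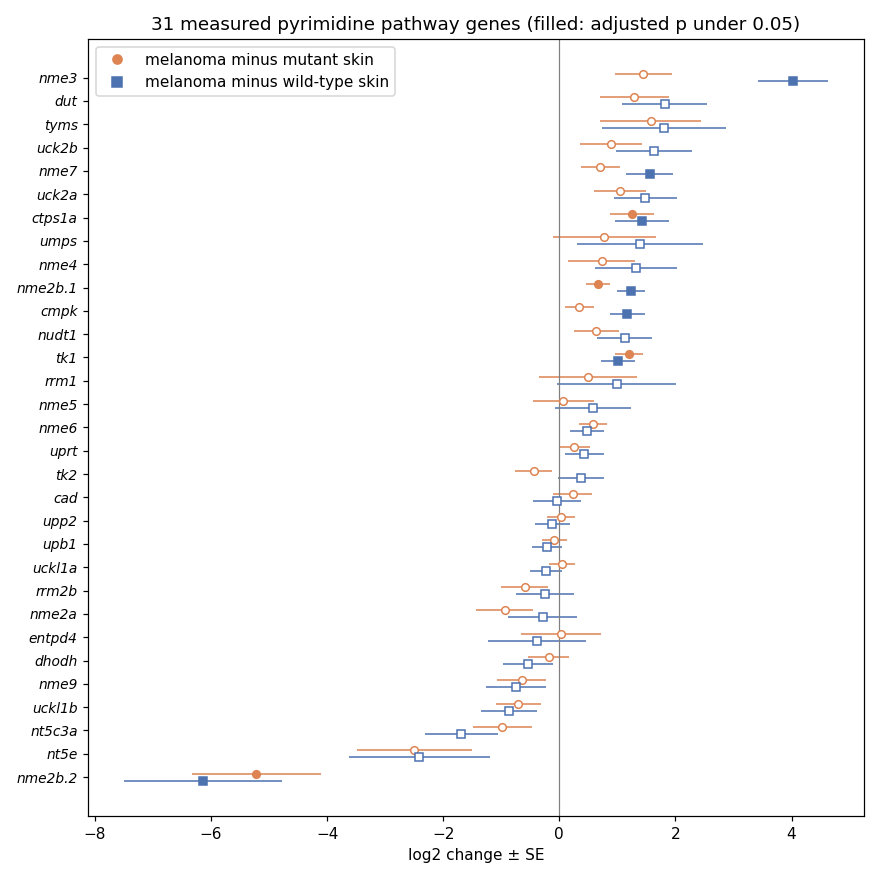
Log2 change ± standard error of the 31 measured pyrimidine genes in melanoma against mutant skin and against wild-type skin, from the limma fit over all 15 arrays. The gene nme2b.2 lies far below the rest at -5.22 and -6.14 (upper bounds), nme3 is the highest against wild-type skin at 4.03, and dhodh lies at -0.18 and -0.54.

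Of a list of 36 nucleotide, nucleoside and creatine kinase genes, 22 were measured. It overlaps the pyrimidine list, and its tk1 and cmpk calls are those given above. In melanoma against mutant skin 1 rose, tk1, and 4 fell, ak1 (-2.84 ± 0.68), ckma, ckmb and ckmt2a (-5.58 ± 1.39), which encode adenylate kinase and creatine kinases of muscle. In melanoma against wild-type skin the same 4 fell, and tk1, cmpk and the guanylate kinase gene guk1a (2.28 ± 0.67) rose. The guk1a call was lost without any 1 of 7 arrays. Over all genes 7.41% rose and 5.63% fell against mutant skin, and 9.34% rose and 7.48% fell against wild-type skin. The 4 kinases that fell stand beside the lower muscle level of melanoma 1 to 5 given above. Of these, ckma and ckmb belong to the muscle marker list, so their likeness to that level is partly built in. Of 35 genes of ubiquinone synthesis and of enzymes that share the ubiquinone pool with Dhodh, 22 were measured. In melanoma against mutant skin 0 rose and 2 fell, coq8aa (-1.92 ± 0.39, limma adjusted p = 0.0066) and coq9 (-1.97 ± 0.58, limma adjusted p = 0.0372), both needed for ubiquinone synthesis, with a median change of -0.48. The count that fell was 7 with array quality weights, 7 without the arrays of high oocyte level, 12 with the oocyte covariate and 0 with the muscle covariate. In the same order those fits called 1193, 1003, 986 and 0 of all 8793 genes lower, against 495 in the main fit. In melanoma against wild-type skin 0 rose and 10 fell, among them coq8aa (-3.13), coq9 (-2.83), the complex III genes cyc1 (-1.83) and uqcrc2b (-1.93) and etfdh (-1.96), with a median change of -1.48. The 10 became 1 without wild-type skin 2, 1 without wild-type skin 3, 6 to 11 without any other array and 0 with the muscle covariate. Over all genes 658 fell there, 289 without wild-type skin 2, 245 without wild-type skin 3 and 1 with the muscle covariate. In mutant skin against wild-type skin 0 of the 22 rose and 0 fell, with a median change of -0.88 against -0.02 over all genes. An unadjusted p under 0.05 was found there for 7 of the 22 and for 638 of all 8793 genes. Array quality weights called 7 of the 22 lower there, in a fit that called 285 of all genes lower. The coq9 call against mutant skin was lost without any 1 of 10 arrays, and the calls of coq9, cyc1, etfdh and uqcrc2b against wild-type skin were lost without wild-type skin 2 or 3. With the muscle level as a covariate the coq8aa calls, kept on leaving out any single array, were lost as well. That fit called 0 of 8793 genes against mutant skin and 1 against wild-type skin, so nearly every call was lost in it.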

How the data were processed

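The deposited table holds log2 values of 15617 probe sets on 15 arrays. The authors used GCRMA, which subtracts background and normalizes Affymetrix signals, per the submitters' processing notes, which give no version. The values are relative to an unstated level per probe set, so signal over background is unknown. The array medians were -0.56 to 0.098. Of the probe sets, 115 controls were left out, and 10795 of the other 15502 carried 1 symbol, 135 several and 4572 none. Gene IDs of 10711 matched RefSeq, which changed 1 symbol. A gene's value was the mean of its probe sets. The members and lists were chosen with earlier results of these data known.

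Groups came from the titles. limma 3.58.1 in R 4.3.3 fitted 3 groups to 8793 genes (lmFit and eBayes, 12 residual degrees of freedom), with 3 contrasts, each adjusted over all genes. Over all genes, standard errors of changes had a median of 0.40 against mutant skin and 0.49 against wild-type skin. On simulated data for melanoma against mutant skin over 8793 genes, 66% of 100 genes changed by 2 (log2) and 91% of 100 changed by 4 were recovered, with 6 of 8593 unchanged genes called. The simulated noise was independent between genes and arrays, without a floor or shared tissue content. These rates therefore check the fit and need not hold for the real arrays. A list level is the mean of the members' values, each centred on its mean over the arrays. Genes to name were the members, called genes of the lists, cad and umps, and for each member the 5 most and 3 least similar genes by Pearson r, printed for some. Figures used matplotlib 3.10.9 in Python 3.11.15.

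Same-numbered melanoma and mutant skin arrays deviated together in 4 of 6 pairs (r over 0.1, range -0.05 to 0.67). Pairs of unlike number ranged from -0.62 to 0.51, and some of them were also over 0.1. This does not settle whether equal numbers mark pairs. The labels do not state a pairing, so the main fit used none, and the replicate number as a block was an alternative.

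The alternatives were quantile normalization, median centring, array quality weights, trend and robust eBayes, only the arrays compared, the replicate block, arrays of high oocyte level left out or that level as a covariate, floor values missing, the probe set with the largest SD, each probe set tested alone and each array left out. The muscle level as a covariate was chosen after seeing the data.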

Additional observations from a re-analysis of the deposited data

Results flagged for a closer look

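Of 20 groups of 6 member values tested for a sample far from the others, 1 stood out: nme2b.2 in mutant skin 2, at -2.27, where the next value of the group was 0.19. The gap was 0.656 of the group's range, above Dixon's critical value. Chance gives about 1 in 20 such groups. In the same array the muscle marker level was -0.40, the lowest of the skin arrays, and the keratinocyte level was -1.73.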

How the results depend on the processing

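Of 888 alternative values, 793 kept their direction and side of the threshold. With floor values missing, nme2b.2 was -3.33 and -4.26 and lost both calls. That setting removes 3 melanoma arrays, melanoma 1, 2 and 5, which held the lowest nme2b.2 values. Leaving out 1 array gave nme2b.2 -6.30 to -4.84 against mutant skin and -7.22 to -5.77 against wild-type skin, nme3 1.13 to 1.77 against mutant skin, called without melanoma 6 only, and dhodh -0.34 to -0.03 against mutant skin, -0.67 to -0.37 against wild-type skin. For mutant minus wild-type skin nme3 was 2.29 to 2.89. In melanoma minus mutant skin nme3 was called with weights (1.29) and with the replicate block (1.44), and in mutant minus wild-type skin with weights (3.35) and the oocyte covariate (2.59). With the muscle covariate, which left 1 gene called over all, its melanoma minus wild-type call was lost (3.80). The block ended the nme2b.1 call against mutant skin, and moved the counts over all genes from 652 higher and 495 lower to 794 and 695. Of the arrays, 3 of 6 melanomas and 2 of 6 mutant skins correlated best with their own number.

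The count of pyrimidine genes called in melanoma against mutant skin (4) was 14 with weights, 2 with only the groups compared, 12 without the arrays of high oocyte level, 13 with the oocyte covariate and 0 with the muscle covariate, and 2 to 5 leaving out 1 array. Against wild-type skin (7) it was 16, 16 and 0 under weights, the oocyte covariate and the muscle covariate. The oocyte exclusion leaves 1 wild-type array, so no count is given for it there. Leaving out 1 array gave 3 to 8. Over all genes 821 were higher and 658 lower there in the main fit. These counts were 2488 and 1807 with weights. They were 1496 and 1306 with the oocyte covariate and 0 and 1 with the muscle covariate. In mutant against wild-type skin (0) the pyrimidine count was 2 with weights, where 275 of all genes were called higher and 285 lower. It was 1 with the oocyte covariate, where 14 and 40 were (2 and 10 otherwise). Weights called 1666 genes higher and 1193 lower over all genes in melanoma against mutant skin, and the oocyte exclusion 972 and 1003. The oocyte covariate called 1073 and 986, only the groups compared 499 and 413, and the muscle covariate 0 and 0. Median centring made that split 601 and 602, and moved the median of all genes in mutant minus wild-type skin from -0.02 to 0.13.

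Of the signs that turned, those of nme2b.2 in both melanoma comparisons belonged to called differences, and the rest to uncalled ones. For melanoma minus mutant skin dhodh was 0.10 with weights and 0.092 with the oocyte covariate, and nme5 was -0.0897, -0.0172, -0.10, -0.75 and -0.63 with quantile normalization, centring, weights, the oocyte exclusion and the oocyte covariate, and -0.20 to 0.50 leaving out 1 array. nme5 was -0.11 in melanoma minus wild-type skin with the oocyte covariate. For mutant minus wild-type skin the oocyte exclusion leaves 1 wild-type array. In mutant minus wild-type skin nme4 was -0.12 under the oocyte exclusion, nme6 0.0309 with centring, and nme9 0.17, 0.0528, 0.64, 0.18 and 0.65 with quantile normalization, centring, weights, block and oocyte exclusion, and -0.46 to 0.30 leaving out 1 array. With the muscle covariate nme2b.2 was 1.00, 1.54 and 0.54 in the 3 comparisons, nme2a 0.24 and 1.17 in those of melanoma, nme4 -0.31 and nme7 -0.42 in melanoma minus mutant skin, and nme9 0.0266 in mutant minus wild-type skin. The cause of these changes was not tested.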
